A study of Mus musculus with 2 samples.

Results

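The genes described here are 31 genes of cholesterol synthesis, uptake and efflux, chosen by name and found through the RefSeq transcript assigned to each probe. They are 31 of 20884 named genes on the arrays and were read by 44 probes, with several probes for 12 of them. They comprise 18 enzymes of synthesis, 4 genes of sterol sensing and 9 genes of uptake, transport and efflux. All 31 were well above background on both arrays.

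The study compared differentiated small proliferative adipocytes (SPAD) with differentiated stromal vascular cells (SVCD), both grown from collagenase-digested epididymal fat of male C57/BL mice. SPAD derive from cells that floated in a brief spin of the digest and sedimented in a harder spin. SVCD derive from the lower phase of the brief spin. Both cultures reached 90% confluency, were induced to become fat cells with insulin, dexamethasone and IBMX for 3 days, and spent 2 further days in DMEM alone. Total RNA from each was hybridised to 1 single-colour Agilent array. The labels do not say how many mice or cultures stand behind either RNA. With 1 array a group, no difference could be tested or set against replicates, and this limits the precision.

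Cells make cholesterol from acetyl-CoA through mevalonate, farnesyl diphosphate and squalene, or take it up from lipoproteins. When membrane sterol is low, SCAP carries the transcription factor SREBP-2, the product of Srebf2, out of the endoplasmic reticulum, and SREBP-2 then raises the genes of synthesis and uptake; the INSIG proteins hold SCAP back when sterol is plentiful. Oxysterols made from surplus cholesterol activate the LXR nuclear receptors, which raise the efflux transporters ABCA1 and ABCG1. Fat cells hold a large store of the body's cholesterol, largely unesterified at the surface of the lipid droplet.

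Promoter sequence was available from the RefSeq promoter table (build GRCm38.p6) for 23 of the 31 genes. Abcg1, Fdft1, Fdps, Npc1, Osbpl1a, Scarb1, Sqle and Stard4 are not in it. SREBP-2 is known to act with the factors NF-Y and Sp1, so 3 motifs were searched on both strands of the 300-base window (250 bases before and 50 after each start): the sterol regulatory element core TCACNCCAC, the NF-Y box CCAAT and the Sp1 GC box GGGCGG. The 250 bases before the start are shown for Insig1, the only gene with sequence at least 2-fold higher in SPAD. They are also shown for Dhcr7 and Abca1, the 2 lowest with sequence, and for Hmgcs1, which carries the sterol element. Srebf2, also past 2-fold on its brightest probe, has sequence that is not shown. Capitals mark these motifs, and a motif on the other strand appears as its reverse complement (ATTGG for the NF-Y box, CCGCCC for the GC box).
Insig1, chr5:28071162-28071411, plus strand: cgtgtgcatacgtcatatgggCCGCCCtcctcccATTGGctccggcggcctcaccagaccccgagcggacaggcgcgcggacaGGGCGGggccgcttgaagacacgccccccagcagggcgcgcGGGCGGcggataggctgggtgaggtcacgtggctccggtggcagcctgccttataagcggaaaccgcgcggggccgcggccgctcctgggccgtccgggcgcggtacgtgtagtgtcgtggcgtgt
Hmgcs1, chr13:119690101-119690350, plus strand: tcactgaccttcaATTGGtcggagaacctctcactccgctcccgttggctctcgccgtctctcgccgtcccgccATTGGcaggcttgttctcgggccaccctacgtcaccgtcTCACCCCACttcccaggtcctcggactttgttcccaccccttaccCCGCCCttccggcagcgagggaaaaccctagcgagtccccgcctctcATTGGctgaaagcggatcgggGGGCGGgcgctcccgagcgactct
Dhcr7, chr7:143822917-143823166, plus strand: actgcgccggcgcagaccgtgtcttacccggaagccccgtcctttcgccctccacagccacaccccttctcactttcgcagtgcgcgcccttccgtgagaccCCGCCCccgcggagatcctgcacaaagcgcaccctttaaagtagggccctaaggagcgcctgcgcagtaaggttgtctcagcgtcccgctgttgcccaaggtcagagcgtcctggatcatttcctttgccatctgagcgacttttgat
Abca1, chr4:53159896-53160145, minus strand: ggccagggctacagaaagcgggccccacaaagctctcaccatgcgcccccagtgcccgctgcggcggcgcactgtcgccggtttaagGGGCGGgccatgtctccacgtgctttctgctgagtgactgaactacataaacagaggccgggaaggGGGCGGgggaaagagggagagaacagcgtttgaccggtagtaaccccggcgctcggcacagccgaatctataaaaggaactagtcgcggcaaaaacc

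The sterol element core stood in the Hmgcs1 window and in no other of the 23 genes, and in 1.41% of the 11197 genes of the table that were well above background on both arrays. The NF-Y box was found in 14 of 15 synthesis genes with sequence (93.3%), against 42.6% of those 11197 genes. In all 14 a copy began within the last 150 bases before a start, a stretch that held an NF-Y box in 31.3% of the 11197. Acat2 was the synthesis gene without one. For Dhcr7 the box lay at the third of 3 listed starts, so none appears in the window printed above, which belongs to its most upstream start. The GC box was found in 22 of the 23 genes, against 64.1% of the 11197. These are matches of letters and not sites shown to be bound. A gene without a match may still hold an element in other letters or outside the window, which was not searched.

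A signal well above background, called detected here, was measured in SPAD for 64.5% of probes and in SVCD for 65.6%, and no spot outside the controls was saturated. The arrays shared a slide and a scan. Processed intensities are given below as deposited, whereas log2 differences are SPAD minus SVCD after each array was scaled to its own 75th percentile (an intensity of 622 for SPAD and 678 for SVCD). The error after ± is the SD of a log2 difference due to spots alone, from probes printed 10 times, and covers no difference between cultures, extractions or labelling reactions. It was 0.48 for the dimmest and about 0.08 for the brightest of 6 signal bins. The bin of a probe was set by its mean log2 signal over the 2 arrays. For a probe bright on 1 array and dim on the other, such as those of Adipoq and Plin1, the error may therefore be too small. For a probe that was itself printed 10 times, such as that of Pparg, the error is that of the mean over its spots and is smaller.

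As a check of the cell type, all 10 adipocyte markers were well above background on both arrays. In SPAD 8 of them were at least 2-fold higher, among them Pparg (log2 difference 1.98 ± 0.03), Fabp4 (1.92 ± 0.08), Adipoq (4.02 ± 0.15) and Plin1 (4.17 ± 0.15), 1 was lower to that degree (Lpl, -2.77 ± 0.08), and Cebpa lay within 2-fold (-0.43 ± 0.08). Their summed scaled signal was 235 in SPAD and 94.5 in SVCD, in units of the 75th percentile. Fabp4 was the brightest of the 10 on each array and weighs most in both sums. Among the 8 higher markers, Cidec was so on its brighter probe only (3.59 ± 0.10, against -0.0041 on the other). In SVCD the signal was dim for Adipoq (22.7), Plin1 (29.0), Lipe (28.6) and Cfd (50.6), though called well above background. It was bright there for Fabp4 (31257), Lpl (20821), Pnpla2 (7881) and Cebpa (3406), with Pparg (441) and Cidec (115) between. Endothelial markers summed to 35.2 in SPAD and 8.18 in SVCD, and 9 of 10 were at least 2-fold higher. Macrophage markers summed to 44.6 in SPAD and 224 in SVCD, and 6 of 8 measured on both arrays were at least 2-fold lower; Fcgr1 was not well above background in SPAD. Markers of cycling cells summed to 0.891 in SPAD and 21.4 in SVCD (5 of 5 at least 2-fold lower), and those of smooth muscle to 24.7 in SPAD and 315 in SVCD (4 of 5 lower). Mesothelial markers summed to 2.05 in SPAD and 17.4 in SVCD (4 of 6 lower), with Upk3b and Lrrn4 not well above background in SPAD. The part these cells play in the differences below was not tested, and in bulk RNA fewer cells of a type and less RNA per cell cannot be told apart.

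Of the 31 cholesterol genes, 25 lay within 2-fold between SPAD and SVCD. The efflux transporter genes Abcg1 and Abca1, the late synthesis enzyme gene Dhcr7 and Srebf2 on its brightest probe were lower in SPAD by 2-fold or more, whereas the sterol sensor gene Insig1 and the HDL receptor gene Scarb1 were higher. The 2 higher genes are 6.45% of the members, where 14.4% reached that size among all 14077 genes detected on both arrays. The 4 lower genes are 12.9%, where 13.3% of all genes were at least 2-fold lower. The share of members past 2-fold in either direction was 19.4%, against 27.7% of all genes. With the normexp background correction these shares were 19.4% of the members and 19.3% of all genes. With quantile normalization they were 19.4% and 27.4%, and with a mean over probes 16.1% and 27.4%. Scaling to spike-in controls, described below, gave 67.7% and 49.1%. How often the members passed 2-fold relative to all genes thus depended on the processing. The median log2 difference was -0.20 over the members, with quartiles of -0.64 and 0.15, and 0.07 over all genes, with quartiles of -0.48 and 0.60. Below 0 lay 22 of the 31 members and 46.3% of all genes.

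**Figure D1:**
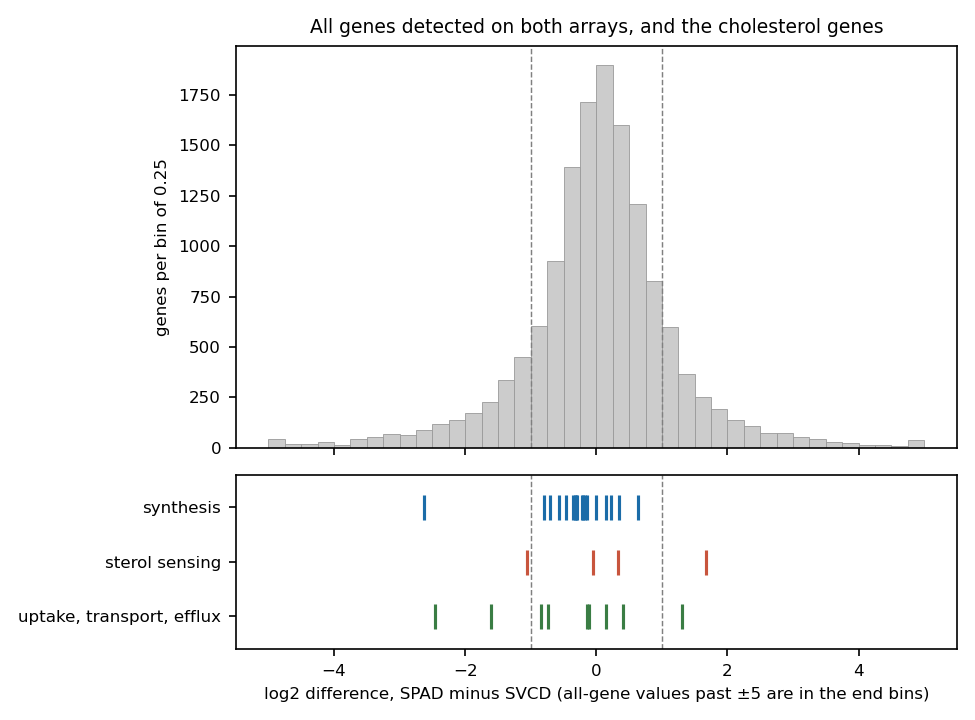
Upper panel: number of genes (vertical axis) by log2 difference, SPAD minus SVCD (horizontal axis), over the 14077 genes well above background on both arrays. Lower panel: 1 tick per cholesterol gene, by role, with dashed lines at 2-fold; the synthesis enzymes lie close together except for 1 gene, Dhcr7, at -2.63.

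Scaling the arrays to 8 spike-in controls in place of the percentile moved the median of all genes to -0.90, and genes higher in SPAD then made up 9.27% of those past 2-fold, in place of 51.9%. Relative to such a shift the order of the members is unchanged by construction, but 67.7% of the members and 49.1% of all genes are then past 2-fold in either direction, 29 of 31 members fall below 0, and only Insig1 (0.70) and Scarb1 (0.35) stay above it. The spike-ins differed among themselves, from 0.65 to 1.75 in log2 raw intensity, SPAD minus SVCD. Directions below are therefore those relative to the 75th percentile.

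**Figure D2:**
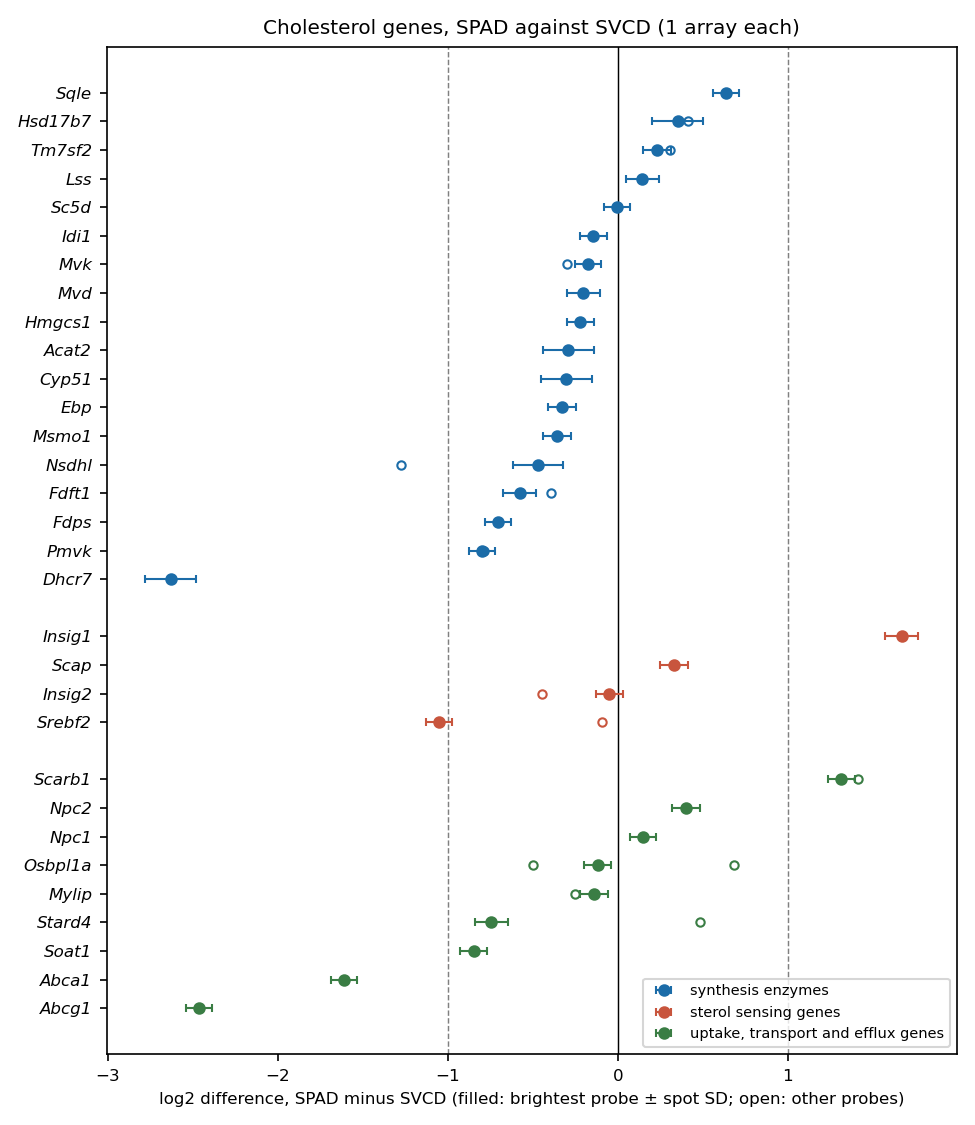
Log2 difference, SPAD minus SVCD (horizontal axis), for each of the 31 genes, grouped by role. Filled points are the brightest probe with its spot SD, open points the gene's other probes, and dashed lines mark 2-fold. Other probes of Scarb1 lie beside the filled point, whereas those of Srebf2, Stard4, Osbpl1a, Nsdhl and Insig2 do not. The open point of Nsdhl, from a dim probe, lies past the 2-fold line.

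The enzymes of synthesis lay mostly within 2-fold and mostly below 0. Of 18 enzymes 1 was at least 2-fold lower in SPAD (5.56%, against 13.3% of all genes) and none was 2-fold higher (against 14.4%). Below 0 lay 14 of the 18 enzymes and 46.3% of all genes, and the median of the enzymes was -0.26. The early enzymes stayed near the centre. Acat2, which joins acetyl-CoA units, had an intensity of 103 in SPAD and 137 in SVCD (-0.29 ± 0.15). Hmgcs1, which makes HMG-CoA and whose promoter holds the sterol element shown above, had 1851 in SPAD and 2353 in SVCD (-0.22 ± 0.08). The difference is thus over 2 spot SDs for Hmgcs1 and just under that for Acat2.

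Along the mevalonate branch, Pmvk, the phosphomevalonate kinase, gave the widest gap. Its brighter probe read 1587 in SPAD and 3011 in SVCD (-0.80 ± 0.08), and its other probe gave nearly the same difference (-0.79). The kinase before it, Mvk, read 2072 in SPAD and 2555 in SVCD (-0.18 ± 0.08, and -0.30 on its other probe). Mvd, the decarboxylase after it, differed by -0.20 ± 0.10, and Idi1, the isomerase that makes dimethylallyl diphosphate, by -0.14 ± 0.08. Thus all 4 were lower in SPAD in these arrays, and the gap was below 2-fold for each of them.

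The enzymes around squalene went both ways. Fdps, which makes farnesyl diphosphate, had 2479 in SPAD and 4406 in SVCD (-0.70 ± 0.08). Fdft1, squalene synthase, had 367 in SPAD and 597 in SVCD (-0.58 ± 0.10, and -0.40 on a dimmer probe). Sqle, the squalene epoxidase and a known control point of the pathway, was instead higher in SPAD, at 3060 against 2147 in SVCD (0.64 ± 0.08, 1.55-fold). It had the highest log2 difference among the 18 enzymes. Lss, which closes the sterol rings to form lanosterol, was nearly equal, at 288 in SPAD and 284 in SVCD (0.14 ± 0.10).

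The enzymes that turn lanosterol into cholesterol included the only synthesis gene past 2-fold. Dhcr7, the reductase of the last step of the Kandutsch-Russell route, had an intensity of 88.6 in SPAD and 597 in SVCD, 6.18-fold lower (-2.63 ± 0.15). With the normexp background correction, which raises dim signals, the log2 difference was -1.96. On the brightest probes the next lowest synthesis enzyme, Pmvk, stood at -0.80. The demethylase gene Cyp51 had 87.4 in SPAD and 118 in SVCD (-0.30 ± 0.15). Msmo1, Nsdhl and Hsd17b7 encode the complex that removes methyl groups from the sterol ring, and they did not move together: Msmo1 differed by -0.36 ± 0.08, Nsdhl by -0.47 ± 0.15 and Hsd17b7 by 0.35 ± 0.15. A dim Nsdhl probe, with 17.7 in SPAD and 46.7 in SVCD, gave -1.28 ± 0.48. The sterol isomerase gene Ebp differed by -0.33 ± 0.08 and the reductase gene Tm7sf2 by 0.23 ± 0.08. Sc5d, the desaturase that acts just before Dhcr7, was equal within the spot error (-0.0039 ± 0.08, with 1363 in SPAD and 1491 in SVCD).

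**Figure D3:**
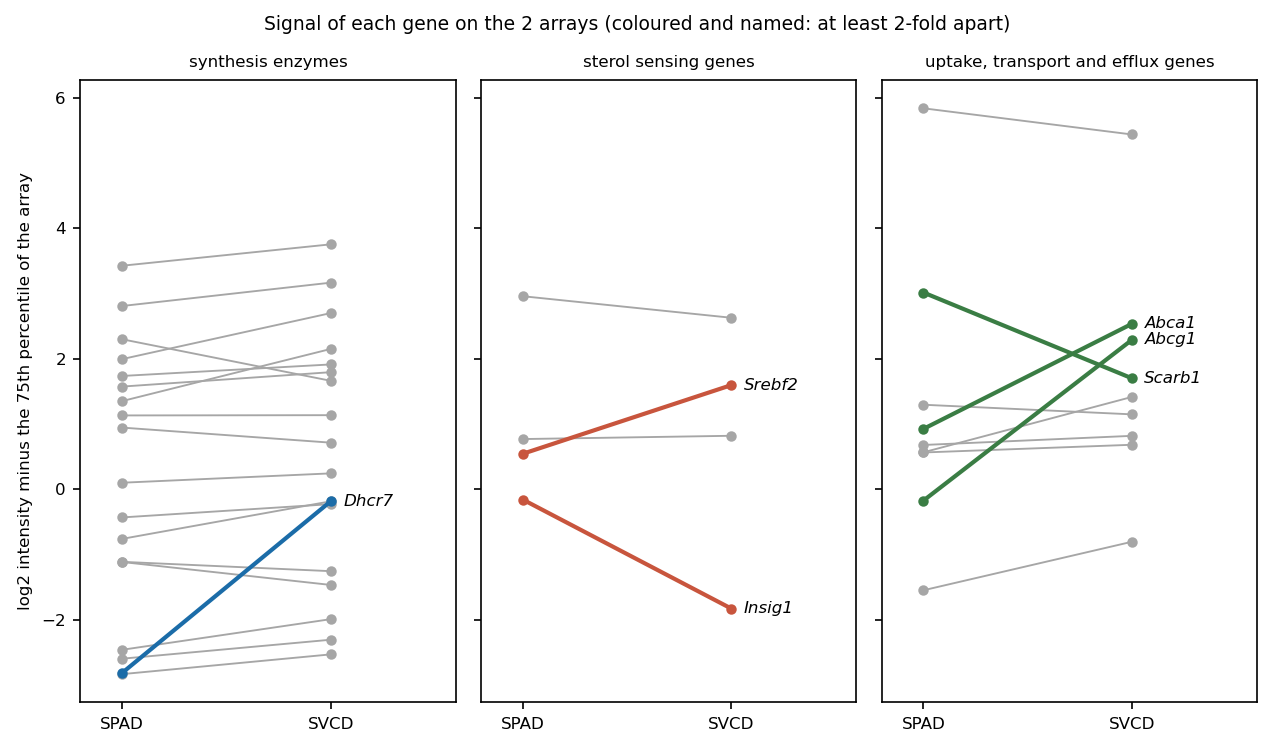
Log2 intensity minus the array's 75th percentile (vertical axis) on the SPAD and the SVCD array, 1 line per gene in a panel per role. Coloured, named lines are genes at least 2-fold apart on their brightest probe: Dhcr7, Srebf2, Abca1 and Abcg1 are lower in SPAD, and Insig1 and Scarb1 are higher.

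The sterol sensing genes split. Insig1, the sensor that is itself a target of SREBP-2, had an intensity of 558 in SPAD and 191 in SVCD, 3.18-fold higher in SPAD (1.67 ± 0.10). Its relative Insig2, which is not induced in the same way, was nearly equal: its brighter probe read 1060 in SPAD and 1198 in SVCD (-0.05 ± 0.08). A probe for another Insig2 transcript read 440 in SPAD and 654 in SVCD (-0.45 ± 0.10). Only the first of these lies within its spot SD of 0. Scap, the escort of SREBP-2, read 4833 in SPAD and 4194 in SVCD (0.33 ± 0.08).

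Srebf2 itself depended on the probe. Its brighter probe read 907 in SPAD and 2051 in SVCD, 2.07-fold lower (-1.05 ± 0.08). Its dimmer probe, assigned to the same transcript, read 237 in SPAD and 276 in SVCD (-0.10 ± 0.15). The probes thus disagree by far more than the spot error, and a mean over both gave -0.57, short of 2-fold. Insig1, like Dhcr7, Abca1 and Abcg1, was read by a single probe, so no second probe bears on any of them.

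Among the efflux genes the ABC transporters were lower in SPAD. Abcg1, which passes cholesterol to HDL particles, had an intensity of 551 in SPAD and 3316 in SVCD, 5.51-fold lower (-2.46 ± 0.08). Abca1, which loads cholesterol onto lipid-poor apolipoprotein A-I, had 1181 in SPAD and 3931 in SVCD, 3.05-fold lower (-1.61 ± 0.08). Their values moved little with normexp (-2.33 for Abcg1 and -1.60 for Abca1). Mylip, a ubiquitin ligase that is also a known LXR target and limits lipoprotein uptake, was not lower to that degree, at 996 in SPAD and 1197 in SVCD (-0.14 ± 0.08). Macrophages express Abca1 and Abcg1 strongly, and the macrophage markers summed to 44.6 in SPAD and 224 in SVCD; their part in this difference was not tested.

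Scarb1, which encodes the receptor SR-BI for selective uptake of cholesterol esters from HDL, ran the other way. Its brighter probe read 5027 in SPAD and 2205 in SVCD, 2.49-fold higher in SPAD (1.31 ± 0.08). Its dimmer probe read 786 in SPAD and 322 in SVCD (1.41 ± 0.10). The probes agree within their spot error. Endothelial cells also carry this receptor, and the endothelial markers summed to 35.2 in SPAD and 8.18 in SVCD, as adipocyte markers summed to 235 in SPAD and 94.5 in SVCD; their part was not tested.

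Genes of movement and storage inside the cell lay within 2-fold. Soat1, which esterifies cholesterol for storage, had 921 in SPAD and 1809 in SVCD (-0.85 ± 0.08). Npc1 and Npc2 hand cholesterol out of lysosomes. Npc1 read 1527 in SPAD and 1504 in SVCD (0.15 ± 0.08), and Npc2 35546 in SPAD and 29365 in SVCD (0.40 ± 0.08). Npc1 was therefore nearly equal and Npc2 slightly higher in SPAD (0.19 for Npc2 with quantile normalization), while Soat1 was 1.80-fold lower.

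Stard4, a soluble sterol carrier, and Osbpl1a, an oxysterol-binding protein of late endosomes, gave different signs on different probes. The brighter Stard4 probe read 213 in SPAD and 389 in SVCD (-0.74 ± 0.10), and the dimmer one, at 51.4 in SPAD and 40.1 in SVCD, gave 0.48 ± 0.48. The Osbpl1a probes of one transcript gave -0.12 ± 0.08 and -0.50 ± 0.15. The probe of its other transcript read 644 in SPAD and 438 in SVCD (0.68 ± 0.10). No direction can be given for either gene as a whole.

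Beyond the members, 44 other genes of sterol handling, which include regulators, receptors and carriers, were read from a list set by their textbook roles. Of the 43 detected on both arrays, 6 were past 2-fold upward in SPAD (14.0%, against 14.4% of all genes). Downward there were 11 (25.6%, against 13.3%), or 8 with normexp, where 9.5% of all genes were lower. The median was -0.03. Star, the mitochondrial cholesterol carrier of steroid-making cells, had 11393 in SPAD and 77.0 in SVCD, 161-fold higher (7.33 ± 0.08), with 5.64 on another probe. Its SVCD signal was dim, so this error may be too small. Gramd1c, of a family that moves cholesterol from the plasma membrane to the endoplasmic reticulum, had 2279 in SPAD and 224 in SVCD, 11.1-fold higher (3.48 ± 0.08). These carriers thus differed by more than any of the 31 members.

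The lipoprotein receptor genes on the list were divided. Vldlr, a receptor for triglyceride-rich lipoproteins, had 4789 in SPAD and 616 in SVCD (3.09 ± 0.08, and 3.78 on another probe). Its close relative Lrp8 had 256 in SPAD and 40.5 in SVCD (2.78 ± 0.15, and 3.06 on another probe). Lrp1, a large receptor for lipoprotein remnants and many other ligands, had 5252 in SPAD and 16047 in SVCD, 2.80-fold lower (-1.49 ± 0.08). Vldlr and Lrp8 were thus higher in SPAD on both of their probes, and Lrp1, read by 1 probe, was lower.

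Ch25h, cholesterol 25-hydroxylase, which makes an oxysterol, had 48.9 in SPAD and 305 in SVCD, 5.71-fold lower (-2.51 ± 0.15). Cyp7b1, which breaks oxysterols down, had 25.6 in SPAD and 199 in SVCD (-2.83 ± 0.48), so its SPAD signal was dim. Nr1h3 and Nr1h2, named after their values were seen, encode the LXR receptors that raise the efflux transporters. Nr1h3, which encodes LXR alpha, had 796 in SPAD and 2014 in SVCD (-1.21 ± 0.08, and -1.25 on another probe), whereas Nr1h2, which encodes LXR beta, had 8654 in SPAD and 7571 in SVCD (0.32 ± 0.08). Abcg4, a relative of Abcg1, had 135 in SPAD and 33.7 in SVCD (2.13 ± 0.48), opposite in direction to Abcg1, and 3.29 on a probe not well above background in SVCD.

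**Figure D4:**
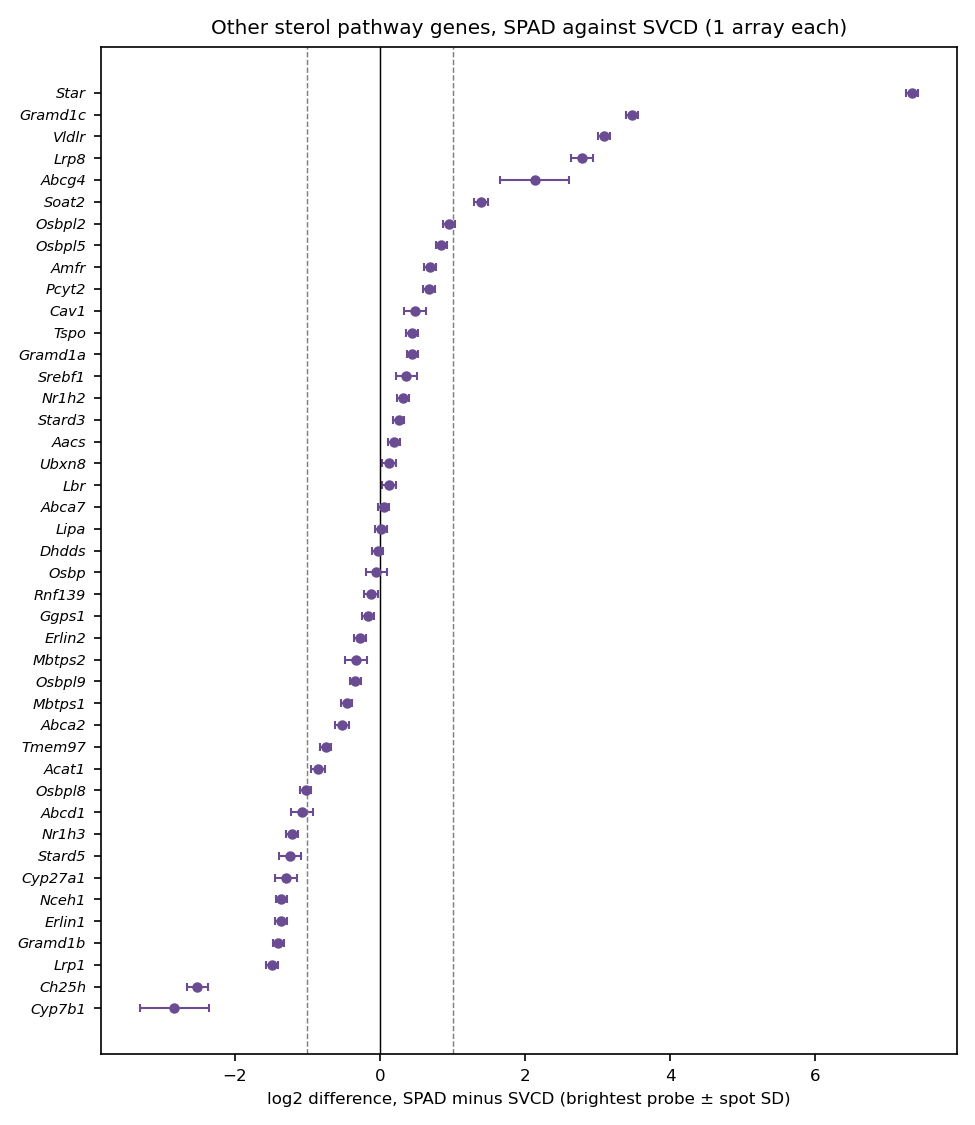
Log2 difference, SPAD minus SVCD (horizontal axis), for the 43 other sterol pathway genes well above background on both arrays, brightest probe with its spot SD, dashed lines at 2-fold. Star stands far to the right at 7.33, and Cyp7b1 and Ch25h at the left end at -2.83 and -2.51.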

How the data were processed

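Cy3-labelled cRNA was made from 30 ng RNA per array, per the labels' protocols, and the submitters' processing notes name Agilent Feature Extraction 10.7.3.1 for reading the spots. Per the file headers, the deposited intensity of a spot is linear and already corrected for background. A further table from the authors holds log2 values, centred on each probe over the 2 arrays, whose scaling between arrays the sources used here do not state.

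Control spots (1377 of 44397) and outlier spots (73 on SPAD, 85 on SVCD) were left out, repeat spots were averaged, and log2 intensity was taken relative to the 75th percentile of the array (39425 probes). A probe counted as well above background unless most of its kept spots failed that call. Probes were named through their transcript from a RefSeq table (GRCm38.p6), which matched 27506 probes; the array design used mm9, so no coordinates come from that table. A gene was read from its brightest probe on average, and every probe of a member was examined. Size was judged at 2-fold. The spot error came from 281 probes printed 10 times. Some probes may bind near-identical genes, which was not tested.

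All 31 members, and of the other pathway genes the 8 with the largest difference, are named. The members and lists were chosen with earlier results of these data known. The scaling was tested on simulated data in which most probes were left unchanged. That test could not bear on a shift of most genes, such as spike-in scaling gave. Alternatives were normexp (limma 3.58.1, R 4.3.3, offset 50), quantile normalization, spike-in scaling, a mean over probes, no filter on dim probes, the authors' deposited table and a 1.5-fold rule. The files have no mean signal column, so normexp used the median signal, a choice made after the files were seen. Python 3.11.15, numpy 2.4.6, pandas 2.3.3 and matplotlib 3.10.9 were used.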

Additional observations from a re-analysis of the deposited data

How the results depend on the processing

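No paired analysis was possible because each group has 1 array, and for the same reason no replicate could be left out. Normexp, quantile normalization, the mean over probes, no filter on dim probes and the authors' deposited table were compared with the main setting. In these, the counts of members and of other pathway genes past 2-fold stayed within 1.5 times. Their medians moved by less than the pooled spot SD of 0.22. Dropping the filter could not move the members, since all 31 were detected on both arrays. The deposited table shifts the arrays by nearly the same amount as the main scaling (0.124 against 0.125 in log2), so it could hardly move any gene. Over all genes, 1380 were higher (9.81%) and 1336 lower (9.5%) with normexp, in place of 2029 (14.4%) and 1877 (13.3%) of 14077. Without the filter on dim probes, 3371 of 20884 genes were higher (16.1%) and 2627 lower (12.6%). Dhcr7, Abcg1, Abca1, Insig1 and Scarb1 were past 2-fold in all of these settings. Srebf2 fell short with the mean over probes (-0.57), and Osbpl1a changed sign there (0.02). With spike-in scaling, 0 members were past 2-fold upward in SPAD, 21 members downward (67.7%, against 44.6% of all genes), and of the other sterol pathway genes 5 upward and 22 downward. It moved the medians to -1.17 (members), -1.22 (synthesis), -0.83 (sensing), -1.11 (uptake, transport and efflux) and -1.001 (other pathway genes), since it shifts all genes. At 1.5-fold, 3 members were higher and 8 lower, and 10 other pathway genes were higher and 13 lower, against 25.7% of all genes higher and 21.7% lower. Dhcr7 was dim in SPAD, and its fold moved with the background correction, as given above.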

Other observations

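The mevalonate pathway also feeds protein prenylation, dolichol and ubiquinone, and 15 genes of these branches were read from a list written after the member values were seen. All 15 were detected on both arrays. In SPAD, 1 was past 2-fold upward (Nus1), or 6.67%, against 14.4% of all genes. Downward there were 2 (Dolpp1 and Pdss1), or 13.3%, the same share as among all genes (13.3%). The median log2 difference was -0.11, against 0.07 for all genes. Dolpp1, a dolichyl diphosphate phosphatase, had an intensity of 1171 in SPAD and 3451 in SVCD (-1.43 ± 0.08). Pdss1, which builds the ubiquinone side chain, had 143 in SPAD and 329 in SVCD (-1.08 ± 0.06). Nus1, a subunit of the enzyme that makes dolichol, had 14062 in SPAD and 5404 in SVCD (1.51 ± 0.08), but its other probe gave -0.25.

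Further members of the oxysterol-binding and START domain families, listed at the same stage, were also read. Of 10 detected on both arrays, 2 were past 2-fold upward in SPAD and 3 downward, where 14.4% of all genes were higher and 13.3% lower. Stard8, a START domain protein, had 251 in SPAD and 1695 in SVCD (-2.63 ± 0.08). Osbpl3, an oxysterol-binding protein, had 97.7 in SPAD and 600 in SVCD (-2.49 ± 0.15), with -2.63 on another probe, and Stard10 differed by -1.69 ± 0.48. Cert1, which moves ceramide, had 1004 in SPAD and 509 in SVCD (1.11 ± 0.08). Stard6 had 127 in SPAD and 43.2 in SVCD (1.68 ± 0.15, and 1.56 on another probe). The genes named here were chosen after their values were seen.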
